A study of Mus musculus with 18 samples.

Results

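The genes described here are the Wnt ligands, their receptors and their inhibitors, taken by symbol from the count table. They comprise every gene named Wnt, Fzd, Sfrp, Dkk or Rspo followed by a number, together with Lrp5, Lrp6, Frzb, Wif1, Axin2, Lgr4, Lgr5, Znrf3, Rnf43, Tcf7, Tcf7l1, Tcf7l2 and Lef1. The choice gave 54 of 53801 mouse genes: 19 Wnt ligands, 10 Frizzled receptors, 2 co-receptors, 4 R-spondins, 2 R-spondin receptors, 2 ligases that remove receptors, 10 secreted antagonists, the feedback inhibitor Axin2 and 4 TCF/LEF transcription factors. Of these, 40 had enough counts to be tested and 14 did not.

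RNA-seq was run on isolated whole islets, the endocrine tissue of the pancreas, taken at an age of 5 weeks from mice fed normal chow. Their MafA genotype was wild type (WT) or S64F heterozygous (S64F/+), where MafA is a transcription factor of beta cells that the series title ties to inherited diabetes and to a male-biased beta-cell dysfunction. Males gave 4 WT and 4 S64F/+ libraries and females 5 of each, with 19.3 to 108.7 M counts per library (median 42.4). The labels do not say whether replicates came from separate animals, so the p-values measure the spread between these samples, which may be partly technical. Levels are counts relative to library size (CPM), with sizes scaled by the trimmed mean of M values, and levels of different genes are compared by the authors' FPKM, which divides by gene length. Differences between groups are log2 differences with their standard error (SE) from edgeR's quasi-likelihood test, and a gene is said to rise or fall where its p, adjusted by Benjamini-Hochberg over all 18364 genes tested, was below 0.05.

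Wnt proteins are secreted lipid-modified ligands that bind Frizzled receptors, alone or together with the co-receptors Lrp5 and Lrp6. In the beta-catenin branch, binding blocks the complex of Axin, Apc and Gsk3 that destroys beta-catenin, which then acts with TCF/LEF factors on target genes. R-spondins strengthen the signal by binding Lgr receptors and withdrawing the ligases Rnf43 and Znrf3, which otherwise clear Frizzled from the cell surface, while Sfrp, Frzb, Wif1 and Dkk proteins act outside the cell against it. In the pancreas the pathway is known for its part in organ growth and beta-cell proliferation, and the gene for TCF7L2 is a well-known locus of inherited diabetes risk in people.

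Mafa itself was at 905 ± 80.8 CPM (SD, n = 4) in male WT and 197 ± 52.3 (n = 4) in male S64F/+ islets, a log2 difference of -2.20 ± 0.22. In females it was at 639 ± 117 (n = 5) and 160 ± 49.8 CPM (n = 5), a difference of -2.0 ± 0.20. The level shows no more than that total Mafa RNA was lower with the variant, since counts per gene do not separate the alleles. Of 11 beta-cell markers, 10 fell in males and 9 in females. Their summed level was 212697.8 to 290281.6 CPM in male WT and 127012.9 to 141226.8 in male S64F/+ islets, without overlap. In females the ranges overlapped, at 167667.4 to 308456.5 CPM in WT and 132522.7 to 244817.1 in S64F/+ islets. Ins2 and Ins1 made up most of these sums. In males their WT and S64F/+ means were 164000 and 91600, and 66100 and 29700 CPM. In females they were 142000 and 140000, and 54400 and 39900 CPM, and neither gene was called there. Beta-cell RNA was thus abundant in all 18 libraries. The sum was lower in male S64F/+ islets, while most single markers fell in both sexes (median log2 difference -0.84 in males and -0.51 in females). The part of this in the results was not tested. Markers of other cells moved too. The sum of 14 genes of stellate cells and fibroblasts, the collagen-making cells around islets, was 262 to 604 CPM in male WT and 1685.2 to 2546.1 in male S64F/+ islets, and 11 of the 14 rose. In females this sum was 353 to 932 in WT and 320 to 1151.5 in S64F/+ islets, and 1 of the 14 rose. Of 10 Schwann-cell markers 5 rose in males, with sums of 42.5 to 53.1 CPM in WT and 106 to 129 in S64F/+ islets, and 1 rose in females (42.3 to 72.0 and 63.1 to 139 CPM). Of 12 macrophage markers 7 rose and 1 fell in males (96.9 to 137 and 137 to 177 CPM), and 6 rose in females (86.0 to 125 and 110 to 197 CPM). The sum of 7 mesothelial markers was lower in S64F/+ islets, at 161 to 224 and 39.1 to 93.9 CPM in males and 96.5 to 233 and 34.2 to 80.3 CPM in females. Msln made up most of this sum, with WT and S64F/+ means of 181 and 26.8 CPM in males and 155 and 34.4 in females. It alone fell, while 2 of the 7 rose in males and 1 in females. Each of the others had a higher mean in S64F/+ islets, and the median log2 difference of the 7 was 0.95 in males and 0.83 in females. Of 12 markers of exocrine (acinar) cells, none was called for genotype in either sex. Their sums varied widely within groups, at 2794.8 to 27002.0 CPM in male WT and 4162.0 to 17527.7 in male S64F/+ islets. In females they were 11253.0 to 42963.8 CPM in WT and 15476.5 to 36775.8 in S64F/+ islets. The part of any of these cell types in the results was not tested. In whole islets, a change in the number of cells of a type and a change in RNA per cell cannot be told apart.

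In males, 17 of the 40 tested genes rose in S64F/+ islets and 4 fell, while 15.4% of all genes tested rose and 12.3% fell. These are 42.5% and 10% of the 40, the second close to the share among all genes. A low gene could pass the filter through the group in which it was high, so the counts describe these 40 and not all 54. The median log2 difference of the tested Wnt genes was 0.70, beside -0.03 for all genes. In females 5 rose and 6 fell, which is 12.5% and 15%, while 10.2% of all genes rose and 11.0% fell, and the median was 0.23 beside 0.02. With the replicate number as a block the female counts were 5 and 8, the falls of Dkk2 and Tcf7l1 being added. Frzb, Fzd7 and Fzd8 fell and Fzd5 and Wnt3 rose in both sexes, whereas Lrp5 rose in males and fell in females. The genotype effect itself differed between the sexes for 6 of the 40, with Dkk2, Fzd4, Lgr5 and Lrp5 more positive in males and Frzb and Wnt4 more negative. Among all genes 4.47% differed, 2.87% in the first direction and 1.6% in the second, and the medians were 0.57 and 0.01. The 2 library groups of each of the 21 male calls did not overlap, and among the female calls this held for 4 of the 5 rises and 3 of the 6 falls. Over all genes tested the groups did not overlap for 35.1% in males and 11.6% in females, and among all called genes for 89.9% of the male rises, 90.2% of the male falls, 47.0% of the female rises and 53.8% of the female falls, so a call itself largely fixes this. Of the 17 male rises, 9 were in genes below 1 CPM on average in male WT islets, and the count was 11 without male WT replicate 1 and 10 without male WT replicate 4. With library totals in place of trimmed-mean scaling, the median of all genes shifted to 0.19 in males and 0.25 in the difference between sexes. All genes then split into 4248 rises and 666 falls in males, against 2819 and 2252 with the main scaling, and the Wnt genes into 21 rises and 2 falls. For the difference between the sexes all genes split into 1031 higher and 30 lower, against 527 and 294, and the Wnt genes into 8 and 0.

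**Figure D1:**
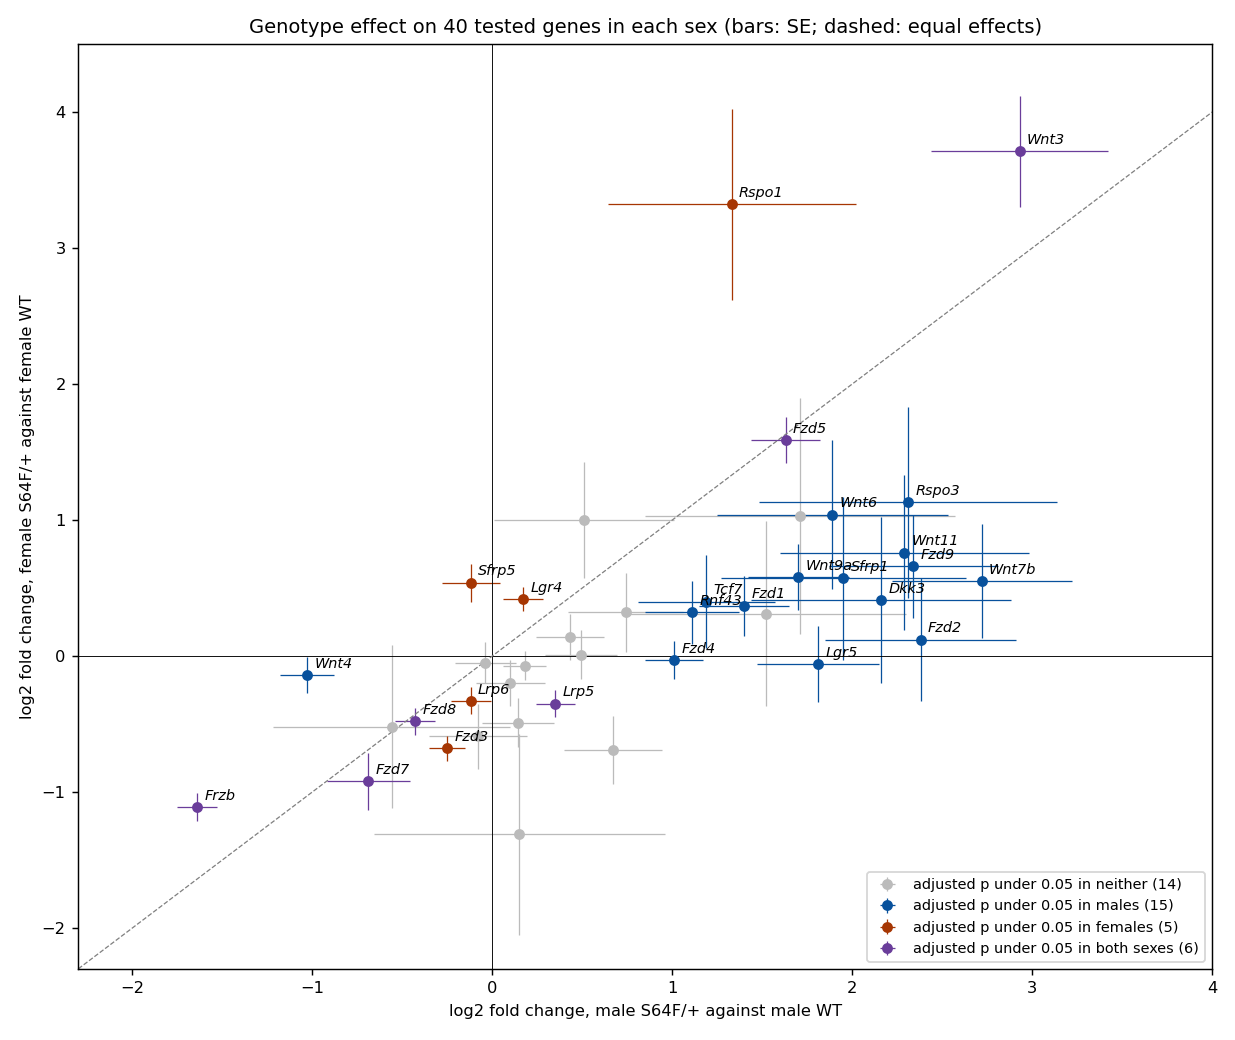
Genotype effect of each tested gene in males (horizontal axis) and females (vertical axis), as the log2 difference S64F/+ minus WT, coloured by the contrasts in which the gene was called. Wnt3 and Fzd5 lie at the upper right, Frzb at the lower left, and Wnt4 lies to the left near a female difference of 0.

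Wnt3 and Fzd5, a ligand and a receptor that rose in both sexes, and Sfrp5, an antagonist that rose in females, are shown with the 250 bases before their annotated start in RefSeq (GRCm38.p6), because they were called and at most 30 bases of the window lie in an annotated exon of the gene. Each is written 5′ to 3′ on the strand of the gene, and capitals mark TGCTGA, a half-site of the Maf recognition element. Frzb, the antagonist with the smallest adjusted p in both sexes, is not among the genes shown.
Wnt3, chr11:103773925-103774174, plus strand: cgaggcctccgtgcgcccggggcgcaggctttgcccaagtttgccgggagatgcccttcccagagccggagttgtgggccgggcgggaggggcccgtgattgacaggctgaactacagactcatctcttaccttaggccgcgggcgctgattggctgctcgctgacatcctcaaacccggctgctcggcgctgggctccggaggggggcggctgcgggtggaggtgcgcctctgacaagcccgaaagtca
Fzd5, chr1:64737751-64738000, minus strand: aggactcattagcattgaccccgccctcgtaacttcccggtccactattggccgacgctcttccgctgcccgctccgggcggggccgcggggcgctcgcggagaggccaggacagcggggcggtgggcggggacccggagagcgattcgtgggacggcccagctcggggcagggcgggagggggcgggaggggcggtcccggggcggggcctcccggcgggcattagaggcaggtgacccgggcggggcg
Sfrp5, chr19:42202253-42202502, minus strand: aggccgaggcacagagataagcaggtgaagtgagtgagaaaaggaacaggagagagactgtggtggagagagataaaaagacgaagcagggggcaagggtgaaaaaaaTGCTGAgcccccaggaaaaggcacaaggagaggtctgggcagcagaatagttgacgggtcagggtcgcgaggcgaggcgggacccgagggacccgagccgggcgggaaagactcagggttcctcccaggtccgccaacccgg
The Wnt3 window held 68.0% GC with 22 CpG pairs, the Fzd5 window 76.4% with 32, and the Sfrp5 window 59.6% with 13. The TGCTGA motif, searched on both strands, occurred once in the Sfrp5 window, starting 142 bases before the start site, and not in those of Wnt3 and Fzd5. Over windows of 300 bases, which add 50 bases after the start, TGCTGA was present in 19.5% of all 32851 RefSeq promoters and in 13.3% of the 45 promoters that belong to 36 of the 54 Wnt genes. The motif TCAAAG, a half-site of the TCF/LEF factors, also searched on both strands, was present in 16.0% of all promoters and in 13.3% of those 45. The genes with TGCTGA were Lef1, Rnf43, Sfrp5, Wnt16 and Wnt9b, and those with TCAAAG were Dkk1, Frzb, Fzd1, Lef1, Wnt11 and Wnt5b. Neither half-site was more frequent in the Wnt promoters than in all promoters, and a match in letters is no evidence of binding.

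Wnt4 was the dominant ligand. This ligand (ENSMUSG00000036856; GRCm38 chromosome 4, 137277489 to 137299726, + strand) is best known from kidney and ovary development. By FPKM it made up on average 98.5% of the summed Wnt ligand level in male WT, 92.3% in male S64F/+, 98.0% in female WT and 95.8% in female S64F/+ islets. Its own FPKM in these groups was 54.3 ± 6.64 (SD, n = 4), 31.2 ± 3.85 (n = 4), 50.8 ± 9.01 (n = 5) and 45.2 ± 8.72 (n = 5). In CPM, male WT libraries were at 230, 248, 204 and 280 and male S64F/+ libraries at 123, 105, 135 and 109. Every male S64F/+ library was below every male WT library, and Wnt4 fell 2.04-fold (-1.03 ± 0.15, adjusted p = 5.54e-05). The female libraries were at 199, 190, 269, 202 and 215 CPM in WT and 150, 230, 242, 177 and 176 in S64F/+, and these ranges overlapped (-0.14 ± 0.13, adjusted p = 0.481). The difference between the 2 effects was -0.88 ± 0.20 (adjusted p = 0.020). It was no longer called without male WT 4 (adjusted p = 0.056) or with library totals (-0.63, adjusted p = 0.0693).

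Wnt3, a ligand of the beta-catenin branch that Paneth cells make in the gut, had the largest rise among the 9 tested ligands in each sex (ENSMUSG00000000125; chromosome 11, 103774150 to 103817957, + strand). The male WT libraries held 0.0553, 0.168, 0.2 and 0.152 CPM and the male S64F/+ libraries 1.77, 1.11, 0.608 and 1.17. In females, WT libraries held 0.126, 0.118, 0.0821, 0.308 and 0.26 CPM and S64F/+ libraries 4.3, 1.5, 1.41, 2.25 and 2.24. The ranges were apart in both sexes, with all WT libraries at or below 0.308 CPM, near the limit of detection. It rose 7.62-fold in males (2.93 ± 0.49, adjusted p = 0.000226) and 13.1-fold in females (3.71 ± 0.41, adjusted p = 4.67e-06), and the effects did not differ by the test of their difference (-0.78 ± 0.65, adjusted p = 0.482). Female S64F/+ replicate 1, at 4.3 CPM, stood above the other 4.

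Wnt9a and Wnt7b rose in males and were not called in females by edgeR's test over all libraries. Wnt9a, a ligand known from joint and liver development, was at 1.11, 0.746, 1.96 and 0.76 CPM in male WT, against 3.64, 3.34, 3.87 and 4.01 in male S64F/+ libraries, a log2 difference of 1.70 ± 0.28, adjusted p = 0.000216. The female libraries held 1.28, 1.58, 2.05, 1.21 and 1.53 CPM in WT and 2.11, 2.69, 1.45, 2.71 and 2.38 in S64F/+ islets, where the ranges overlapped (0.58 ± 0.24, adjusted p = 0.0994). This female difference passed the threshold by DESeq2 (0.60, adjusted p = 0.0469) and without male WT 3 (adjusted p = 0.0473). Wnt7b, a ligand of epithelia and of the vessels of the brain, was at 0.0553, 0.144, 0.266 and 0.38 CPM in male WT, against 2.45, 1.36, 0.953 and 0.929 in male S64F/+ libraries, again with no overlap (2.72 ± 0.50, adjusted p = 0.0005). Its female libraries were at 0.306, 0.295, 0.656, 0.237 and 0.213 CPM in WT and 0.646, 0.705, 0.332, 0.481 and 0.275 in S64F/+ (0.55 ± 0.42, adjusted p = 0.383). The difference between the sexes missed the threshold for both genes (Wnt9a 1.12 ± 0.37, adjusted p = 0.0804, Wnt7b 2.16 ± 0.65, adjusted p = 0.0598). It passed with library totals (adjusted p = 0.0487 for Wnt9a and 0.043 for Wnt7b) and with DESeq2 (0.0279 and 0.022), for Wnt9a without male WT 3 (0.0269), and for Wnt7b without female WT 4 or female S64F/+ 1 (adjusted p down to 0.0369).

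Wnt11 and Wnt6 also rose in males, from levels near the limit of detection. Wnt11, a ligand mostly of the branch without beta-catenin, was at 0, 0.337, 0.266 and 0.152 CPM in male WT, against 0.885, 1.17, 0.669 and 1.37 in male S64F/+ libraries (2.29 ± 0.69, adjusted p = 0.0186). Wnt6, a ligand of epithelial development, was at 0.0553, 0.457, 0.2 and 0.342 and 1.08, 1.27, 0.831 and 1.0 CPM (1.89 ± 0.64, adjusted p = 0.033). Both genes were highest among female libraries in S64F/+ replicates 2 and 3. Wnt11 was at 0.342, 0.531, 0.533, 0.237 and 0.59 CPM in female WT, against 0.237, 1.28, 1.5, 0.788 and 0.11 in female S64F/+ libraries. Wnt6 was at 0.378, 0.531, 0.369, 0.166 and 0.307 and 0.495, 1.32, 1.66, 0.231 and 0.147 CPM. In neither gene was the female difference called (Wnt11 0.76 ± 0.57, adjusted p = 0.377, Wnt6 1.04 ± 0.55, adjusted p = 0.191). The male Wnt11 call was lost without male WT 4 (adjusted p = 0.0562). That of Wnt6 was lost without male WT 1, 3 or 4, male S64F/+ 1, 2 or 4 (adjusted p up to 0.0867, without male WT 1). The sum of the stellate and fibroblast markers was highest in the same 4 male S64F/+ libraries. Within the female S64F/+ group it was highest in the same replicates 2 and 3 (1035 and 1151.5 CPM, against 320 to 682 in the other 3). These replicates also had the highest Schwann-cell (113 and 139 CPM), endothelial (827 and 987) and acinar sums (25678.3 and 36775.8) of that group. The part of these cells in the results was not tested.

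Wnt2b, Wnt5a and Wnt5b were tested and not called in either sex. Wnt5a, the ligand best known for the branch without beta-catenin, differed by 0.74 ± 0.32, adjusted p = 0.0971 in males and 0.32 ± 0.29, adjusted p = 0.477 in females. The male Wnt5a difference passed the threshold without male S64F/+ 2 (adjusted p = 0.0331). Wnt2b differed by 1.71 ± 0.86, adjusted p = 0.157 in males and 1.03 ± 0.87, adjusted p = 0.439 in females. Wnt5b differed by -0.08 ± 0.27, adjusted p = 0.866 in males and -0.59 ± 0.24, adjusted p = 0.0885 in females, and it overlaps Fbxl14 on the opposite strand, which had 30752 counts over all libraries against 1754 for Wnt5b. The overlap is one of whole gene spans, and overlap of exons was not checked. With no strand setting stated, it is not known whether reads of Fbxl14 were counted for Wnt5b. The female Wnt5b difference passed the threshold without female WT 3 (adjusted p = 0.0315). The other 10 ligands failed the filter on low counts. Wnt3a had no count in any library, which with 3 counts as the limit allows up to 0.0247 CPM over the male WT libraries. Wnt1, Wnt8a and Wnt8b had 2 counts each over all 18 libraries, Wnt16 had 11, Wnt10a 28, Wnt2 33, Wnt10b 50, Wnt7a 63 and Wnt9b 83. Wnt10a had 0 counts over the 4 male WT libraries, 22 over the 4 male S64F/+, 1 over the 5 female WT and 5 over the 5 female S64F/+ libraries. These 10 genes were at the limit of what the depth can show, and no difference was tested.

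**Figure D2:**
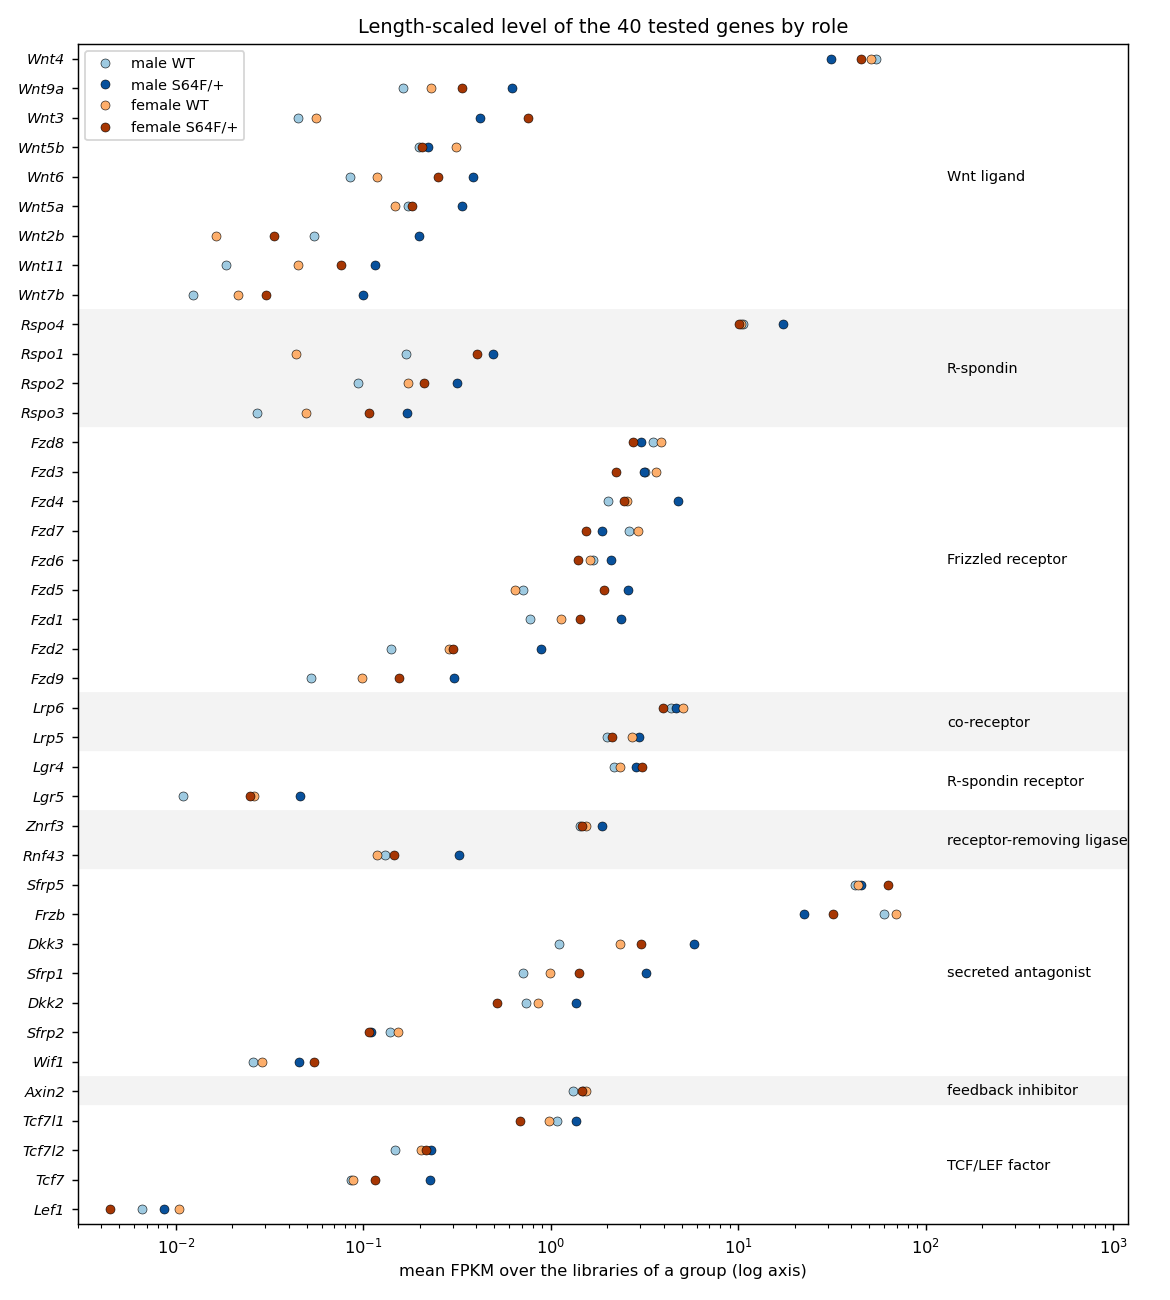
Mean FPKM of each tested gene in the 4 groups on a logarithmic horizontal axis, with the genes ordered by role. Wnt4, Frzb, Sfrp5 and Rspo4 stand above all other genes in every group.

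Rspo4 supplied most R-spondin RNA, 92.6 to 97.5% of the summed R-spondin FPKM in the 4 groups. R-spondins are the secreted partners of Lgr receptors. Rspo4, known for nail development, was at 32.9, 27.7, 20.4 and 25 CPM in male WT, 26, 40, 43.8 and 38.8 in male S64F/+, 24, 21.9, 33.1, 22.8 and 21 in female WT, against 22.8, 25.8, 15.8, 28.6 and 29.8 in female S64F/+ libraries. Neither genotype difference was called (males 0.49 ± 0.20, adjusted p = 0.0794, females 0.01 ± 0.18, adjusted p = 0.988). The male one passed the threshold with library totals (0.70, adjusted p = 0.0213), with DESeq2 (adjusted p = 0.0499) and without male S64F/+ 1 or female S64F/+ 3 (adjusted p down to 0.0281). Rspo1, known from ovary development, rose in females. It was at 0.009, 0.059, 0.123, 0.284 and 0.0472 CPM in female WT, against 1.61, 0.705, 0.956, 1.04 and 0.385 in female S64F/+ libraries, with no overlap and a rise of 9.99-fold from a very low level (3.32 ± 0.70, adjusted p = 0.00257). In males it was at 0.387, 0.192, 0.565 and 0.494 CPM in WT and 1.31, 0.124, 0.912 and 1.71 in S64F/+ libraries, where S64F/+ replicate 2 lay below every WT library (1.33 ± 0.69, adjusted p = 0.17). The test of the difference between the sexes was not passed (-1.99 ± 0.98, adjusted p = 0.22).

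Rspo3, an R-spondin of blood vessels and mesenchyme, rose in males with a p close to the threshold. It was at 0, 0.168, 0.233 and 0.038 CPM in male WT, against 0.485, 0.679, 0.669 and 0.636 in male S64F/+ libraries (2.31 ± 0.83, adjusted p = 0.0448). The female libraries were at 0.081, 0.295, 0.287, 0.071 and 0.236 CPM in WT and 0.151, 0.661, 1.04, 0.346 and 0.0183 in S64F/+, and were not called apart (1.13 ± 0.70, adjusted p = 0.27). All values are at most 1.04 CPM, and the male call was lost without male WT 1, 2 or 4, male S64F/+ 1, 2, 3 or 4, female WT 3 or 5, female S64F/+ 4 (adjusted p up to 0.122, without male WT 4) and with no filter on low counts (adjusted p = 0.0641). Rspo2 was not called (males 1.52 ± 0.78, adjusted p = 0.164, females 0.31 ± 0.68, adjusted p = 0.79). With the 2 male groups alone the male Rspo2 difference had an adjusted p of 0.00703. As with Wnt6 and Wnt11, female S64F/+ replicates 2 and 3 held the most Rspo2 (4.1 and 4.82 CPM) and Rspo3 (0.661 and 1.04 CPM) of their group. They also had its highest sums of stellate and fibroblast, Schwann-cell, endothelial and acinar markers, whose part in this was not tested.

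Among the 9 tested Frizzled receptors, 5 rose and 2 fell in males, and 1 rose and 3 fell in females. These are 55.6% and 22.2% of the 9 in males and 11.1% and 33.3% in females, beside 15.4% and 12.3% of all genes in males and 10.2% and 11.0% in females, so the share with a female rise is close to that of all genes. Fzd5 (ENSMUSG00000045005; chromosome 1, 64730558 to 64737751, - strand), a receptor known from gut and eye, rose by nearly the same amount in both sexes. It was at 7.57, 6.64, 6.65 and 8.55 CPM in male WT, against 29.3, 18.3, 19.5 and 23.8 in male S64F/+ libraries, and at 6.54, 6.65, 5.99, 7.03 and 5.57 in female WT, against 22.7, 23.5, 11.3, 17.7 and 20.6 in female S64F/+ libraries. No S64F/+ library of either sex was as low as any WT library. The rise was 3.1-fold in males (1.63 ± 0.19, adjusted p = 6.26e-06) and 3.01-fold in females (1.59 ± 0.17, adjusted p = 2.71e-06), with a difference between sexes of 0.04 ± 0.25 (adjusted p = 0.944). Its share of the summed Frizzled FPKM went from 4.90 to 12.1% in males and from 3.85 to 13.4% in females.

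Fzd4, the receptor of the vessel ligand Norrin as well as of Wnts, rose in males, and the test of the difference set the sexes apart. It was at 11.3, 17.3, 15.4 and 12.8 CPM in male WT, against 31.7, 27.5, 32.1 and 24.1 in male S64F/+ libraries, without overlap (1.01 ± 0.16, adjusted p = 0.000135). Female libraries were at 17.4, 18.2, 18.8, 14.6 and 17.6 CPM in WT and 14.2, 15.6, 22.9, 18.9 and 13.5 in S64F/+ (-0.03 ± 0.14, adjusted p = 0.919). The male effect exceeded the female effect by 1.04 ± 0.21 on the log2 scale (adjusted p = 0.0152), and Fzd4 held the largest share of Frizzled FPKM in male S64F/+ islets, 22.6%. Of 12 endothelial markers, 8 rose and 1 fell in males, with sums of 570 to 809 CPM in WT and 996 to 1201.6 in S64F/+, and 1 fell in females (671 to 940 and 671 to 987 CPM). The part of these cells in the Fzd4 result was not tested.

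Fzd1, Fzd2 and Fzd9 rose in males. Fzd1 was at 2.49, 4.07, 3.83 and 3.23 CPM in male WT, against 11.9, 6.79, 9.08 and 8.26 in male S64F/+ libraries (1.40 ± 0.25, adjusted p = 0.000496). Its female libraries were at 3.8, 5.77, 6.97, 3.67 and 3.59 CPM in WT and 6.03, 8.07, 7.48, 4.79 and 4.4 in S64F/+ (0.37 ± 0.22, adjusted p = 0.26), with a wide overlap. Fzd2, a receptor of mesenchyme, was at 0.221, 0.674, 0.565 and 0.722 and 5.25, 2.22, 2.33 and 1.83 CPM in males (2.38 ± 0.53, adjusted p = 0.00247). Male S64F/+ replicate 1, at 5.25 CPM, held over 2 times the level of the other 3, and the male difference was 1.93 (adjusted p = 0.0122) without it. In females Fzd2 was at 0.468, 1.49, 1.85, 1.02 and 0.401 CPM in WT and 1.08, 1.5, 1.45, 1.25 and 0.366 in S64F/+ libraries (0.12 ± 0.45, adjusted p = 0.887). Fzd9 was below 1 CPM everywhere, at 0.221, 0.144, 0.0998 and 0.038 CPM in male WT, against 0.742, 0.865, 0.466 and 0.44 in male S64F/+ (2.34 ± 0.47, adjusted p = 0.00103). Its female values were 0.126, 0.295, 0.205, 0.284 and 0.236 CPM in WT and 0.172, 0.441, 0.499, 0.404 and 0.33 in S64F/+ (0.66 ± 0.38, adjusted p = 0.23). For none of these 3 did the effects of the sexes differ past the threshold (adjusted p = 0.0776, 0.0631 and 0.102). DESeq2 called that difference for Fzd1 (adjusted p = 0.028) and Fzd2 (0.016), library totals called it for Fzd2 (0.0452), and it passed for Fzd1 without female WT 4 (0.0463).

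Fzd7, Fzd8 and Fzd3 made up most of the Frizzled FPKM of WT islets, and each fell in at least 1 sex. Fzd8 held 23.8% of the Frizzled FPKM in male WT and 14.4% in male S64F/+ islets, and 23.2 and 19.4% in females. It was at 13.1, 11.5, 13.9 and 10.8 CPM in male WT, against 9.07, 8.59, 9.97 and 8.9 in male S64F/+ libraries (-0.43 ± 0.11, adjusted p = 0.00799). Female WT and S64F/+ libraries held 14.1, 13.3, 11.6, 12.3 and 14.2, and 9.94, 9.43, 7.77, 8.94 and 10.9 CPM (-0.48 ± 0.10, adjusted p = 0.0024), and the ranges were apart in both sexes. Fzd7, a receptor of stem and embryonic cells, was at 10.7, 11.9, 16.5 and 10.6 CPM in male WT, against 8.89, 6.27, 8.47 and 7.09 in male S64F/+ libraries (-0.69 ± 0.23, adjusted p = 0.0343). Its female WT libraries were at 10.3, 14.9, 14.4, 12.3 and 15.1 CPM. Of the female S64F/+ libraries (12.4, 5.29, 5.65, 5.77 and 6.17 CPM), 4 lay below every WT library and replicate 1 lay among them (-0.92 ± 0.21, adjusted p = 0.00448). With library totals the male differences shrank to -0.21 for Fzd8 (adjusted p = 0.267) and -0.47 for Fzd7 (0.195) and were no longer called. The male Fzd7 call was also lost without male WT 3, male S64F/+ 2 or 4 (adjusted p up to 0.131, without male WT 3).

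Fzd3, a receptor known from axon guidance and planar polarity, fell in females. Its female WT libraries were at 60.2, 46.4, 46.1, 42.1 and 46.5 CPM and the S64F/+ libraries at 34.2, 28.3, 29.2, 28.5 and 30, with no overlap (-0.68 ± 0.09, adjusted p = 3.34e-05). In males the WT libraries were at 45, 38, 48.7 and 46.2 CPM and the S64F/+ libraries at 35.1, 39.4, 38.4 and 36.5 (-0.25 ± 0.10, adjusted p = 0.0754). The male difference passed the threshold with the 2 male groups alone (-0.24, adjusted p = 0.0425) and with the block (-0.25, adjusted p = 0.0438). It also passed without male WT replicate 2 or female WT replicate 1 (adjusted p down to 0.0291). The difference between the sexes was 0.43 ± 0.14 (adjusted p = 0.0706). That difference passed with library totals (adjusted p = 0.025), with DESeq2 (0.0335), with the block (0.0487) and without female WT 4 or female S64F/+ 1 (adjusted p down to 0.0296). Fzd6 was not called in either sex (males 0.10 ± 0.19, adjusted p = 0.749, females -0.20 ± 0.17, adjusted p = 0.451). Fzd10 failed the filter, with 48 counts over all libraries.

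Lrp5, a co-receptor known for bone mass, went in opposite directions in the sexes. It was at 40, 43.9, 44.9 and 36.1 CPM in male WT, against 62.2, 52.1, 49.1 and 47.2 in male S64F/+ libraries, which lay higher without overlap (0.35 ± 0.11, adjusted p = 0.0248). In females it was at 50.3, 54.5, 50.2, 57 and 59.1 CPM in WT and 51.2, 38.4, 36.8, 47.5 and 38.7 in S64F/+ libraries, and 4 of the 5 S64F/+ libraries lay below all WT libraries (-0.35 ± 0.10, adjusted p = 0.0179). The test of the difference was passed (0.70 ± 0.15, adjusted p = 0.0176). In WT islets the male level was lower than the female level by an amount just short of the threshold (-0.40 ± 0.11, adjusted p = 0.0587). The male call was lost without male WT 1 or 4, male S64F/+ 1 (adjusted p up to 0.108, without male S64F/+ 1), and the female call was lost without female S64F/+ 2 (adjusted p = 0.0618) or with library totals (adjusted p = 0.051). Lrp6, the more abundant co-receptor by FPKM (61.2 to 68.7% of the pair), fell in females and was not called in males. It was at 94.3, 95.4, 96.8, 76.6 and 89.9 CPM in female WT, against 95.6, 68.2, 58.5, 71.8 and 66.8 in female S64F/+ libraries (-0.33 ± 0.10, adjusted p = 0.0281), where replicate 1 stood with the WT libraries. The male values were 75.8, 80.9, 85.3 and 84.8 in WT and 78.7, 69.2, 79.1 and 72.8 in S64F/+ (-0.12 ± 0.11, adjusted p = 0.461). The female Lrp6 call was lost without female WT 1, 2 or 3, female S64F/+ 2, 3, 4 or 5 (adjusted p up to 0.0753, without female S64F/+ 3), with library totals (adjusted p = 0.0933) and with the 2 female groups alone (0.0849).

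**Figure D3:**
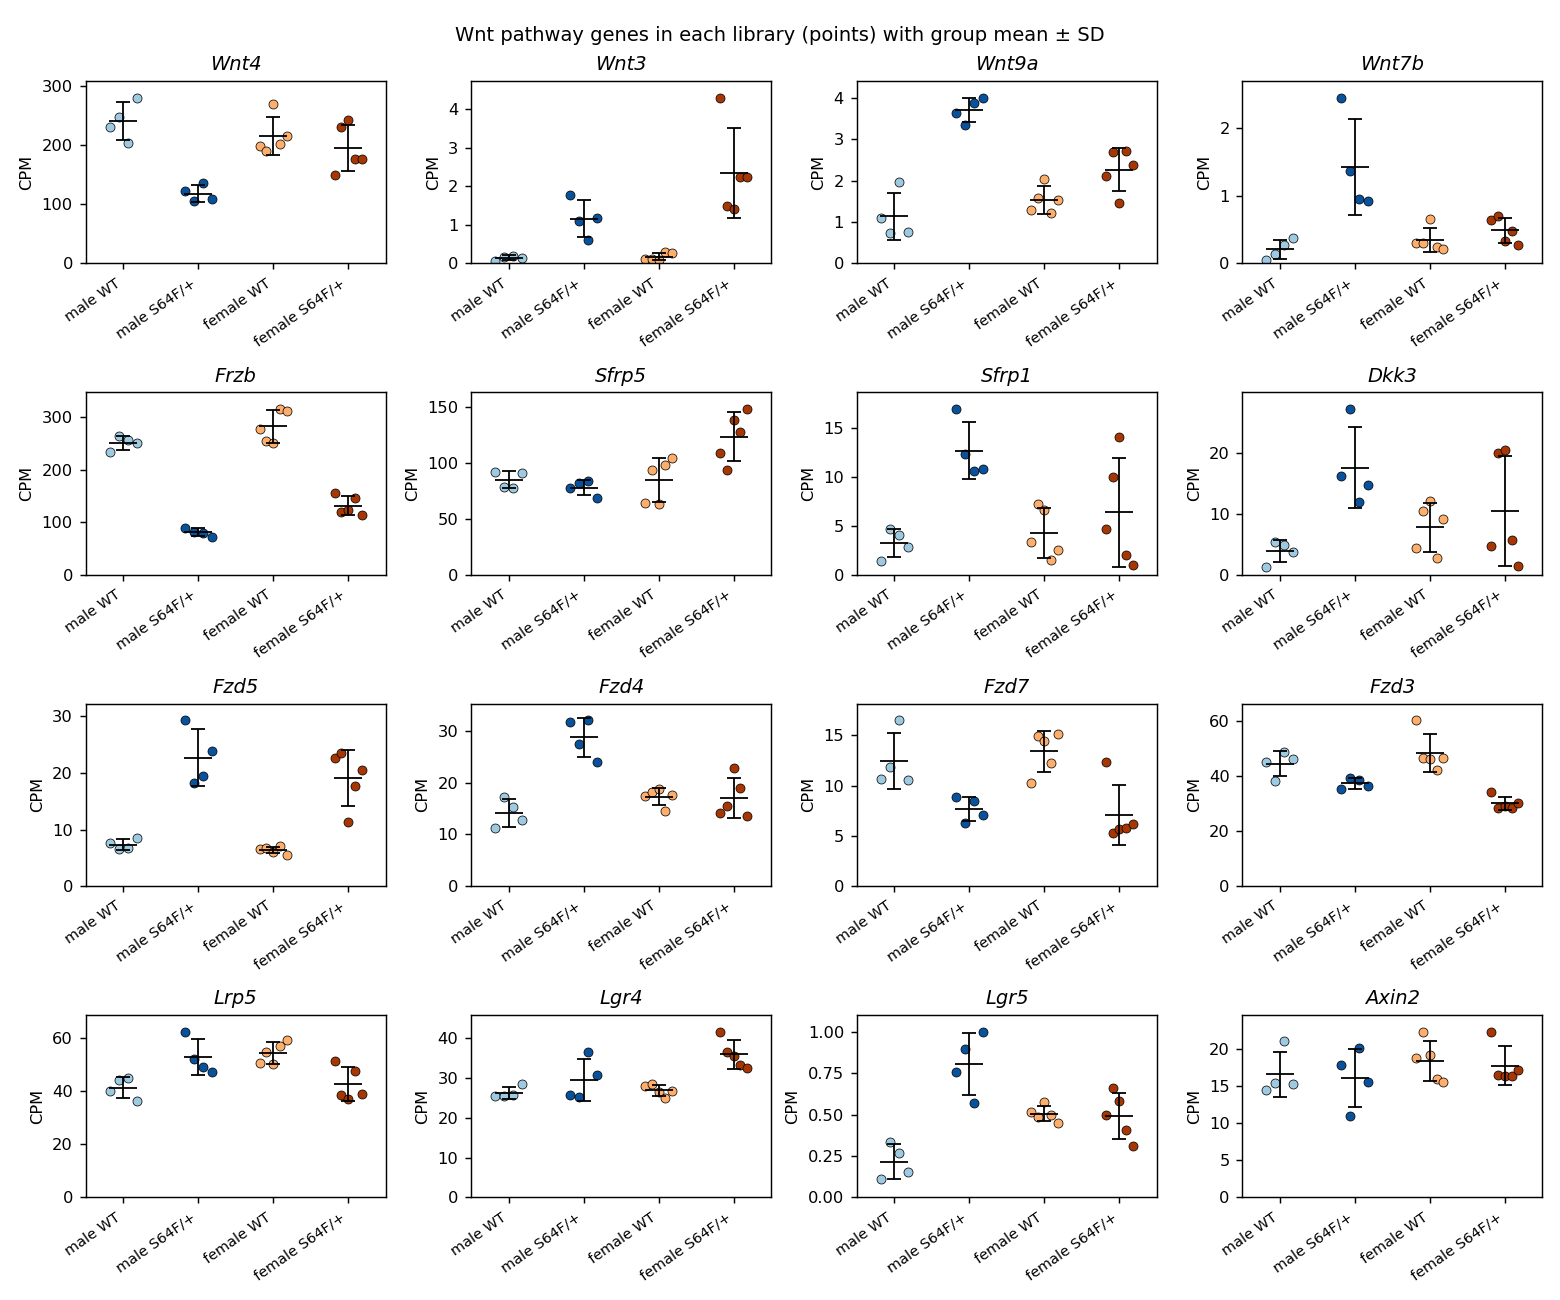
CPM of 16 genes in each of the 18 libraries (points), with the group mean and SD as bars, for WT and S64F/+ males and then WT and S64F/+ females from left to right. The 4 lowest Wnt4 values are those of the male S64F/+ libraries, and Frzb is lower and Fzd5 and Wnt3 higher in the S64F/+ libraries of both sexes.

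Lgr4 and Lgr5 are receptors for R-spondins, and Lgr5 marks stem cells of the gut and is itself a Wnt target. By group mean, Lgr4 held 98.3 to 99.5% of their summed FPKM. It was at 28, 28.5, 26.4, 25 and 26.6 CPM in female WT, against 41.6, 36.6, 35.6, 33.2 and 32.5 in female S64F/+ libraries, a rise with no overlap (0.42 ± 0.09, adjusted p = 0.0041). In males it was at 25.4, 25.5, 25.6 and 28.5 CPM in WT and 25.8, 25.1, 36.4 and 30.7 in S64F/+ (0.17 ± 0.11, adjusted p = 0.258) with the main scaling, and 0.39 with an adjusted p of 0.0307 with library totals. Lgr5 was at most 1 CPM in all libraries, at 0.111, 0.337, 0.266 and 0.152 CPM in male WT, against 0.756, 0.896, 0.568 and 1.0 in male S64F/+ (1.81 ± 0.34, adjusted p = 0.000616). The female libraries did not separate, at 0.513, 0.487, 0.574, 0.497 and 0.449 CPM in WT and 0.495, 0.661, 0.582, 0.404 and 0.311 in S64F/+ (-0.06 ± 0.28, adjusted p = 0.903). The sexes differed in the Lgr5 effect by 1.87 ± 0.44 (adjusted p = 0.027), and in WT the female libraries all lay above the male ones (-1.13 ± 0.33, adjusted p = 0.0767). The difference between the effects was no longer called without male WT 4, male S64F/+ 2 or 4 (adjusted p up to 0.0726, without male WT 4) or without the filter on low counts (0.0523).

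Rnf43, a ligase that removes Frizzled receptors and is a Wnt target, rose in males. It was at 2.38, 3.71, 2.83 and 2.01 CPM in male WT, against 5.59, 4.05, 9.04 and 5.06 in male S64F/+ libraries (1.11 ± 0.26, adjusted p = 0.0031). Female values were 2.56, 2.74, 2.13, 2.3 and 2.29 CPM in WT and 4.15, 2.6, 1.95, 2.85 and 3.44 in S64F/+ (0.32 ± 0.23, adjusted p = 0.341). Znrf3, its more abundant relative with 85.2 to 92.8% of the pair's FPKM, was not called in either sex (males 0.18 ± 0.12, adjusted p = 0.298, females -0.07 ± 0.11, adjusted p = 0.705).

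Frzb and Sfrp5 together made up most of the secreted antagonist RNA, and their ranks changed places in S64F/+ islets. Frzb (ENSMUSG00000027004; chromosome 2, 80411970 to 80447625, - strand), a secreted decoy that resembles the Wnt-binding part of Frizzled, was 57.2% of the antagonists' summed FPKM in male WT, 28.7% in male S64F/+, 59.5% in female WT and 32.2% in female S64F/+ islets. Sfrp5, a decoy of the same kind, was 40.2, 57.9, 36.8 and 62.5% in the same order. Frzb had the smallest adjusted p of all 40 genes in both sexes. It was at 234, 265, 256 and 252 CPM in male WT, against 89.8, 82.3, 79.3 and 71.9 in male S64F/+ libraries, a fall of 3.11-fold (-1.64 ± 0.11, adjusted p = 2.22e-08). In females it was at 278, 254, 252, 316 and 313 CPM in WT and 155, 119, 123, 146 and 114 in S64F/+, a fall of 2.15-fold (-1.11 ± 0.10, adjusted p = 3.21e-07), so all 9 S64F/+ libraries lay below all 9 WT libraries. The fall was larger in males by -0.53 ± 0.14 (adjusted p = 0.0424). That difference was lost without male WT 1, 2, 3 or 4, male S64F/+ 2, 3 or 4, female WT 1, 2 or 3, female S64F/+ 4 (adjusted p up to 0.0863, without male WT 4), with library totals (-0.30, adjusted p = 0.227) and without the filter on low counts (0.0632).

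Sfrp5 rose in females. Its female WT libraries were at 64.2, 93.2, 63, 98.3 and 104 CPM and the S64F/+ libraries at 109, 93.8, 138, 127 and 148, with replicate 2 of S64F/+ inside the WT range (0.54 ± 0.14, adjusted p = 0.0114). In males the groups coincided, at 91.9, 78.3, 77.8 and 90.4 CPM in WT and 77.2, 81.8, 83.5 and 68.4 in S64F/+ (-0.12 ± 0.16, adjusted p = 0.62). The effects of the sexes differed by -0.66 ± 0.21, which missed the threshold (adjusted p = 0.0742). It passed with DESeq2 (adjusted p = 0.0359) and without female WT 4 or female S64F/+ 1 or 2 (adjusted p down to 0.0435). Summed over the family, antagonist FPKM was 105 ± 6.62 (SD, n = 4) in male WT and 78.4 ± 8.57 (n = 4) in male S64F/+, and 118 ± 9.65 (n = 5) and 100 ± 5.15 (n = 5) in females. FPKM rests on plain column totals, so group levels in FPKM lack the scaling used in the tests. Mean male Sfrp5 was 42.1 FPKM in WT and 45.3 in S64F/+ islets, but 84.6 and 77.7 in CPM. Alpha-cell markers rose in females, 8 of 8, with sums of 34196.2 to 42490.3 CPM in WT and 59925.3 to 83112.5 in S64F/+, and 1 of 8 rose in males. Of 6 delta-cell markers 4 rose and 1 fell in each sex. The rise of Sst was called only in females and that of Lepr only in males. The marker that fell was Pdx1, which is also among the beta-cell markers. Delta-cell sums overlapped in males, at 2796.8 to 5393.4 CPM in WT and 3735.9 to 5731.6 in S64F/+ islets. They were apart in females, at 2893.3 to 4414.7 and 6201.0 to 8293.5 CPM. The part of either cell type in the Sfrp5 and Frzb results was not tested.

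Sfrp1 and Dkk3, antagonists that mesenchymal cells often make, rose in males. Sfrp1 was at 1.44, 4.62, 4.02 and 2.81 CPM in male WT, against 16.9, 12.3, 10.6 and 10.8 in male S64F/+ libraries (1.95 ± 0.68, adjusted p = 0.0447). Dkk3, a divergent Dkk protein, was at 1.33, 5.41, 4.92 and 3.8 and 16.2, 27.2, 12 and 14.8 CPM (2.16 ± 0.72, adjusted p = 0.0359). Every male S64F/+ library exceeded every male WT library in both genes. In females, Sfrp1 was at 3.35, 7.23, 6.61, 1.52 and 2.48 CPM in WT and 4.71, 10, 14, 2.06 and 0.989 in S64F/+ libraries (0.57 ± 0.60, adjusted p = 0.552). Dkk3 was at 4.39, 10.5, 12.1, 2.7 and 9.19 and 4.69, 19.9, 20.5, 5.67 and 1.47 CPM (0.41 ± 0.61, adjusted p = 0.686). Replicates 2 and 3 were the highest of their group for both genes in both female groups, as they were for the sum of stellate and fibroblast markers (932 and 816 CPM in WT, 1035 and 1151.5 in S64F/+). Schwann-cell sums were also highest in these replicates, at 69.6 and 72.0 CPM in WT and 113 and 139 in S64F/+. So were endothelial sums, at 920 and 940 CPM in WT and 827 and 987 in S64F/+. The part of any of these cells was not tested. The male Sfrp1 call was lost without male WT 1, 2, 3 or 4, male S64F/+ 1, 2, 3 or 4, female WT 1, female S64F/+ 1 (adjusted p up to 0.116, without male WT 1) and without the filter (0.0922). That of Dkk3 was lost without male WT 1, 2, 3 or 4, male S64F/+ 1, 2 or 4 (adjusted p up to 0.0939, without male WT 1) and without the filter (0.0709).

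**Figure D4:**
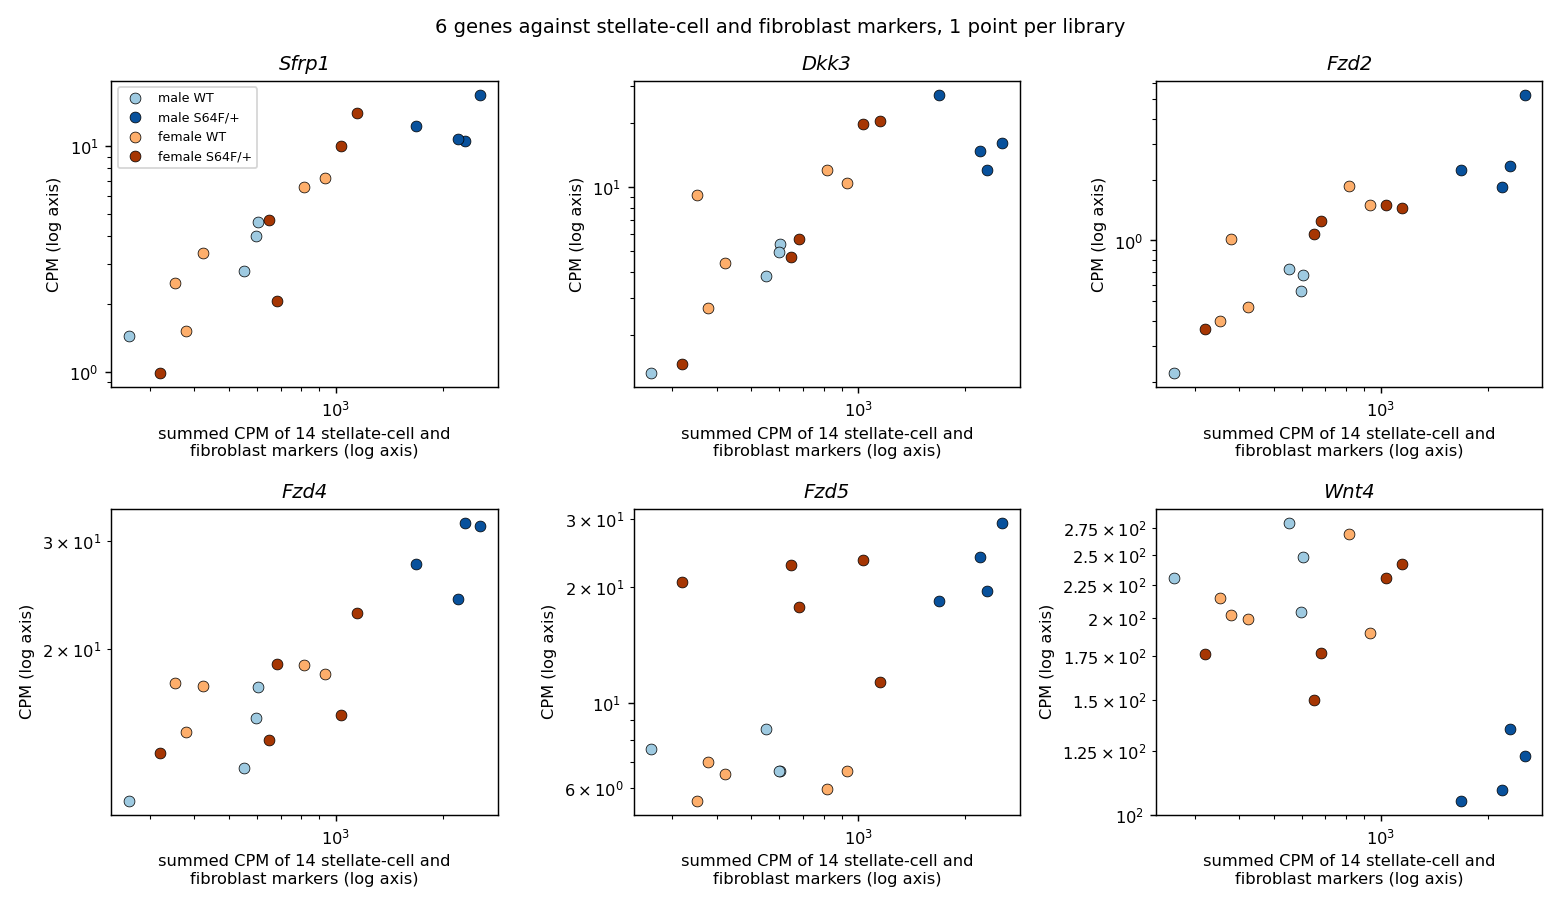
CPM of Sfrp1, Dkk3, Fzd2, Fzd4, Fzd5 and Wnt4 (vertical axes, logarithmic) against the summed CPM of 14 stellate-cell and fibroblast markers (horizontal axis, logarithmic) in the 18 libraries. Both axes share the scaling of each library. The 4 male S64F/+ libraries lie at the right of each panel, at 1685.2 to 2546.1 CPM of the markers.

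Dkk2, which binds Lrp5 and Lrp6, was close to the threshold in each sex and was called in their difference. It was at 3.26, 2.69, 3.13 and 2.36 CPM in male WT, against 5.71, 5.13, 4.18 and 3.18 in male S64F/+ libraries (0.67 ± 0.27, adjusted p = 0.0758). Female WT libraries held 2.96, 3.6, 4.27, 2.23 and 2.88 CPM and S64F/+ libraries 2.99, 1.32, 2.53, 1.21 and 1.76 (-0.69 ± 0.25, adjusted p = 0.0524), and with the replicate number as a block the female difference was -0.74 (adjusted p = 0.022). The male difference passed the threshold with DESeq2 (adjusted p = 0.0428), library totals (0.0336), the 2 male groups alone (0.0289), the block (0.0453) and without male S64F/+ 4 (0.0476). The female one also passed it with DESeq2 (0.0287), with the stricter filter (0.0479) and without female WT 4, female S64F/+ 1 or 3 (adjusted p down to 0.00992). The difference between the effects was 1.37 ± 0.37 (adjusted p = 0.0442), and was lost without male WT 1, 2, 3 or 4, male S64F/+ 1, 2 or 3, female WT 1, 2, 3 or 5, female S64F/+ 2, 4 or 5 (adjusted p up to 0.102, without male WT 4). Sfrp2 and Wif1 were tested and not called (Sfrp2 males -0.56 ± 0.66, adjusted p = 0.576, females -0.52 ± 0.60, adjusted p = 0.585, Wif1 males 0.51 ± 0.50, adjusted p = 0.495, females 1.00 ± 0.43, adjusted p = 0.103). Dkk1, Dkk4 and Sfrp4 failed the filter with 13, 5 and 106 counts over all libraries.

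Axin2, a direct target that feeds back on the pathway and is widely used to read it out, was not called. It was at 14.4, 15.4, 21.1 and 15.3 CPM in male WT, against 17.8, 10.9, 20.1 and 15.5 in male S64F/+ libraries (-0.04 ± 0.17, adjusted p = 0.891). Female WT libraries held 18.8, 22.2, 19.2, 16 and 15.5 CPM and S64F/+ libraries 22.3, 16.5, 16.4, 16.3 and 17.2 (-0.05 ± 0.15, adjusted p = 0.86). The groups overlapped in both sexes. Of the TCF/LEF factors, Tcf7 rose in males from at most 0.466 CPM, at 0.332, 0.409, 0.466 and 0.304 CPM in WT and 0.556, 0.525, 0.933 and 1.49 in S64F/+ (1.19 ± 0.38, adjusted p = 0.024). In females Tcf7 was at 0.207, 0.428, 0.41, 0.331 and 0.496 and 0.581, 0.705, 0.457, 0.365 and 0.366 CPM (0.40 ± 0.34, adjusted p = 0.434), and the male call was lost without male WT 1 or 4, male S64F/+ 3 or 4 (adjusted p up to 0.122, without male S64F/+ 4). Tcf7l2 was at 7.46, 8.54, 8.25 and 5.58 CPM in male WT, 11, 9.51, 11.6 and 7.99 in male S64F/+, 12.4, 11.5, 8.08, 8.59 and 8.34 in female WT, against 9.1, 11, 15.3, 8.71 and 9.95 in female S64F/+ libraries. It was not called (males 0.43 ± 0.19, adjusted p = 0.112, females 0.14 ± 0.17, adjusted p = 0.626), except in males with library totals (0.64, adjusted p = 0.0329). Tcf7l1, mostly a repressor and the most abundant factor of the 4 by FPKM (67.2 to 80.6%), and Lef1 were not called (Tcf7l1 males 0.14 ± 0.20, adjusted p = 0.651, females -0.49 ± 0.18, adjusted p = 0.0614, Lef1 males 0.15 ± 0.81, adjusted p = 0.916, females -1.31 ± 0.74, adjusted p = 0.225). The female Tcf7l1 difference (-0.49 with each) passed the threshold with the 2 female groups alone (adjusted p = 0.0225) and the block (0.0474), and it did so with DESeq2 (-0.48, adjusted p = 0.0362) and without male WT 1 or 4 (adjusted p down to 0.0163).

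Between the sexes, none of the 40 genes was called in WT islets, where 2.36% of all genes were (1.73% higher in males and 0.637% lower). At an unadjusted p below 0.05 there were 5 (Lgr5, Lrp5, Rspo1, Tcf7l2 and Wnt5b), and DESeq2 called 1, Lrp5. In S64F/+ islets, with the same mutant libraries as in the genotype comparisons, 8 of the 40 genes were higher in males and 3 lower. Among all genes 8.0% were higher and 8.12% lower. The share of the 40 that was higher in males was above that of all genes. The share that was lower, 7.5%, was close to that of all genes. Those higher in males were Dkk2 (1.21 ± 0.26, adjusted p = 0.00631), Fzd4 (0.76 ± 0.15, adjusted p = 0.00382), Tcf7l1 (0.81 ± 0.19, adjusted p = 0.00953), Rnf43 (0.98 ± 0.24, adjusted p = 0.0117), Wnt7b (1.56 ± 0.42, adjusted p = 0.019), Fzd3 (0.31 ± 0.10, adjusted p = 0.0357), Rspo4 (0.59 ± 0.19, adjusted p = 0.0406) and Fzd2 (1.39 ± 0.46, adjusted p = 0.0484). Those lower in males were Frzb (-0.70 ± 0.10, adjusted p = 0.000438), Wnt4 (-0.72 ± 0.14, adjusted p = 0.00372) and Sfrp5 (-0.66 ± 0.15, adjusted p = 0.00924). With library totals the median of all genes moved to 0.18 and all genes split into 2763 higher and 374 lower in males, against 1470 and 1492. The Fzd2 call was lost on leaving out any of 14 of the 18 libraries, up to an adjusted p of 0.202 without male S64F/+ 1. Those of Fzd3, Rspo4, Wnt7b and Rnf43 were lost for 8, 7, 2 and 1 of the 18.

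Outside the ligands and receptors, 97 of 106 other genes of the pathway were tested. In males 31 rose and 10 fell (32.0% and 10.3%, beside 15.4% and 12.3% of all genes), with a median of 0.12, and in females 13 rose and 13 fell (13.4% each, beside 10.2% and 11.0% of all genes), with a median of -0.04. The male falls and both female shares were near those of all genes. Among 17 genes of ligand export and extracellular control, 8 rose and 2 fell in males (47.1% and 11.8%) and 1 rose and 1 fell in females (5.88% each), where only the male rises exceed the shares of all genes. Wls, which carries Wnt proteins to the cell surface, fell in both sexes (-0.44 ± 0.07, adjusted p = 0.000183 in males, -0.54 ± 0.06, adjusted p = 1.09e-05 in females). Trabd2b, a protease against Wnt proteins (2.24 ± 0.28, adjusted p = 1.48e-05), Gpc6, a glypican (1.59 ± 0.31, adjusted p = 0.000866), and Adgra2, a receptor partner in vessels (1.35 ± 0.29, adjusted p = 0.0018), rose in males. In females Trabd2b passed with the block (0.56, adjusted p = 0.0499) and without female WT 3 or female S64F/+ 1 (adjusted p down to 0.0402). Tspan12, a Fzd4 partner, rose in females (0.63 ± 0.13, adjusted p = 0.00162).

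Of 37 genes of the cytoplasmic and nuclear steps, 8 rose and 6 fell in males (21.6% and 16.2%, beside 15.4% and 12.3% of all genes), and 3 rose and 7 fell in females (8.11% and 18.9%, beside 10.2% and 11.0%). Tle3, a co-repressor of TCF/LEF factors, fell in both sexes (-0.63 ± 0.10, adjusted p = 0.000172 in males, -0.68 ± 0.09, adjusted p = 3.17e-05 in females), as did Bcl9, a co-activator of beta-catenin (-0.31 ± 0.09, adjusted p = 0.0173 and -0.58 ± 0.08, adjusted p = 6.67e-05). Dact1, a Dishevelled-binding protein, rose in both (0.43 ± 0.15, adjusted p = 0.0364 and 1.23 ± 0.13, adjusted p = 2.88e-06), and Dact2 fell in males (-0.84 ± 0.14, adjusted p = 0.000172). Bcl9l (0.54 ± 0.12, adjusted p = 0.00268) and Ccdc88c (0.96 ± 0.21, adjusted p = 0.00205) rose in males, and Dvl3, a Dishevelled, fell in females (-0.51 ± 0.12, adjusted p = 0.00546). Ctnnb1, which encodes beta-catenin, fell slightly in females (-0.18 ± 0.06, adjusted p = 0.039) and was not called in males (-0.13 ± 0.07, adjusted p = 0.177). The female Ctnnb1 call was lost without any of 9 libraries (adjusted p up to 0.121, without female S64F/+ 2) and in 4 of the 6 other fits run, the block among them (0.0771). The male Bcl9 call was lost with library totals (-0.10, adjusted p = 0.624) and without male WT 2 or male S64F/+ 2 (up to 0.0617). That of Dact1 in males was lost with the block (0.0723) and without male WT 1 or 2 or male S64F/+ 1, 3 or 4 (up to 0.104).

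Among 30 genes of the branch without beta-catenin, 8 rose and 2 fell in males (26.7% and 6.67%, beside 15.4% and 12.3% of all genes) and 5 rose and 5 fell in females (16.7% each, beside 10.2% and 11.0%). The receptor-like Ptk7 (1.01 ± 0.14, adjusted p = 3.22e-05 in males, 0.41 ± 0.12, adjusted p = 0.0222 in females) and the polarity protein Ankrd6 (0.81 ± 0.14, adjusted p = 0.000382 and 0.57 ± 0.13, adjusted p = 0.00358) rose in both. Nfatc4 (1.72 ± 0.29, adjusted p = 0.000228) and the polarity gene Vangl1 (0.63 ± 0.13, adjusted p = 0.000948) rose in males. Intu (-0.62 ± 0.10, adjusted p = 0.000313), Nfatc2 (-0.58 ± 0.13, adjusted p = 0.0028) and the cadherin Celsr1 (-1.47 ± 0.32, adjusted p = 0.00398) fell in females. Of 16 genes often used as targets of the beta-catenin branch, 8 rose in males (50%, beside 15.4% of all genes) and 4 in females (25%, beside 10.2%), and none fell. In the main fit Ccnd1, Ccnd2, Myc, Jun, Sp5, Notum and Lgr6 were called in neither sex. Nrcam, a neuronal adhesion protein, rose most clearly (2.60 ± 0.24, adjusted p = 1.34e-06 in males, 2.95 ± 0.22, adjusted p = 1.75e-07 in females). Tnfrsf19 (2.86 ± 0.41, adjusted p = 5.69e-05) rose in males. Cldn1, a tight junction protein (2.28 ± 0.47, adjusted p = 0.00123 and 1.65 ± 0.41, adjusted p = 0.00817), and the adhesion receptor Cd44 (0.84 ± 0.14, adjusted p = 0.000215 and 0.39 ± 0.12, adjusted p = 0.0333) rose in both. The Cldn1 rise started from low WT means of 0.466 CPM in males and 0.392 in females. Bambi rose in females (0.69 ± 0.17, adjusted p = 0.00658), and in males with library totals (0.50, adjusted p = 0.0265) or the 2 male groups alone (0.30, 0.0139). The female calls of Ptk7 and Cd44 were lost with library totals (adjusted p = 0.056 and 0.116), with the 2 female groups alone (0.0526 and 0.0854) and with the block (0.0563 and 0.0672). That of Ptk7 was also lost without female WT 1 or female S64F/+ 4 (up to 0.074), and that of Cd44 without female WT 1, 4 or 5 or female S64F/+ 1 or 4 (up to 0.0968). The same males had 8 of 12 ductal markers higher, with sums of 744 to 841 CPM in WT and 1110.1 to 1264.2 in S64F/+, and 5 of 12 were higher in females (699 to 830 and 841 to 1023.4 CPM). Their part in the target counts was not tested, and Axin2 was not among the genes called.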

How the data were processed

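The genes, the pathway and marker lists and the naming rule were chosen with earlier results of these data known, so no count over them is independent evidence. Each library's group and replicate number were read from its title, and table columns were matched to titles.

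The authors deposited raw counts per gene and library, and FPKM values. Per the submitters' processing notes, GRCm38 was the build, and STAR, featureCounts, FastQC, MultiQC and DESeq2 were used, with no version or role stated. The strand setting and the annotation used for counting are not given in the sources at hand. For 17897 genes the deposited FPKM was the count over the total of its column and over 1 length per gene, so FPKM served for comparing genes and only the counts were tested. The 99 spike-in features, with 0 counts, were left out of the 53900 listed. Coordinates are from GENCODE M21 (GRCm38), in which all 54 genes were found, and promoter sequences are from RefSeq (GRCm38.p6).

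The quasi-likelihood test of edgeR 4.0.16 (R 4.3.3, limma 3.58.1) was applied to the counts, with robust estimation. Genes were kept by filterByExpr (minimum count 10, minimum total 15), scaled by TMM, and fitted with 1 coefficient per group over 18 libraries. P-values are two-sided and were adjusted by Benjamini-Hochberg within a contrast over 18364 genes. The pipeline was tested on simulated data. Values in every library are given for genes called in a genotype contrast or in the difference between sexes, and whatever their p for Wnt4, Fzd3, Lrp5, Lrp6, Axin2, Tcf7l2 and Lgr4. Rspo4 was added after its values were seen. Of each pathway list, up to 4 called genes with the smallest p per genotype contrast were named.

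Replicates correlated at 0.960 to 0.988, and chi-square per degree of freedom between them was 21.7 or more, which leaves no pair that looks like 1 library listed under 2 names. Same-numbered WT and S64F/+ libraries deviated together in females (r of 0.110 to 0.418 in 5 pairs). Their numbers were taken as possible pairs on that evidence alone, since the labels say nothing of pairing. The main fit has no block and does not pair them. The blocked value stands beside a named female result whose call it changed. The male numbers (r of -0.249 to 0.189) were not taken as possible pairs. Alternatives were library totals, DESeq2 1.42.0, no filter, a filter of 1 CPM in 4 libraries, the 2 compared groups alone, a replicate block, and leaving out each library.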

Additional observations from a re-analysis of the deposited data

Results flagged for a closer look

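Single libraries stood apart from their group in 8 of 116 groups of 4 or 5 libraries checked (4 groups for each of 29 genes), where chance flags about 1 in 20, or 5%. In these the gap to the nearest library was over the 95% critical value of Dixon's test. Female S64F/+ replicate 1 was the highest of its group for 3 genes: Wnt3 at 4.3 CPM, Fzd7 at 12.4 CPM and Axin2 at 22.3 CPM. Male S64F/+ replicate 1 was the highest for Fzd2 at 5.25 CPM. In WT islets the highest libraries were female replicate 1 for Fzd3 at 60.2 CPM, female replicate 3 for Wnt7b at 0.656 CPM, male replicate 4 for Lgr4 at 28.5 CPM and male replicate 3 for Axin2 at 21.1 CPM.

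The genotype effect differed between the sexes for 6 genes by the test of the difference (edgeR). The log2 difference of male minus female effects was 1.87 for Lgr5, 1.37 for Dkk2, 1.04 for Fzd4 and 0.70 for Lrp5. It was -0.88 for Wnt4 and -0.53 for Frzb. Wnt4 fell in 4 of 4 male S64F/+ libraries below all male WT libraries, while the female groups overlapped.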

How the results depend on the processing

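Reversals of direction were counted over the 40 tested Wnt genes and the other pathway genes called in either sex. A change of sign counted only where the main fit or the alternative called the difference. Changes of sign in uncalled differences were not counted. By this rule only library totals reversed a direction. They turned Camk2b in males from a fall to 0.04 (adjusted p = 0.794). They also called Rhoa higher in males, at 0.22 (adjusted p = 0.0235), where the main scaling had it slightly lower and uncalled. With library totals the Wnt genes gave 2 male falls, 8 higher and 0 lower differences between the sexes, and the other pathway genes 3 male falls, 8 female falls and 0 lower differences between the sexes. DESeq2 gave 9 higher differences between the sexes for the Wnt genes and 1 lower in WT males, and 16 higher and 5 lower differences for the pathway genes. Without the filter there was 1 lower difference between the sexes and 5 genes higher in male S64F/+ for the Wnt genes, and 6 male falls, 8 female falls and 1 lower difference for the pathway genes. The stricter filter gave 1 Wnt gene lower in WT males, and the 2 female groups alone gave 7 rises and 8 falls of pathway genes. With the replicate block the Wnt genes gave 17 rises and 4 falls in males, 5 and 8 in females, and 5 and 2 in the difference. The pathway genes gave 1 lower difference, and all other counts of calls stayed within 1.5 times. The block ended the male calls of Fzd7 (adjusted p = 0.0611) and Tcf7 (0.0658) and added those of Fzd3 (0.0438) and Dkk2 (0.0453) in males, and those of Dkk2 (0.022) and Tcf7l1 (0.0474) in females. In males only replicate 4 correlated best with its own number, and in females replicates 1, 2 and 5 did. The block was not run for the 2 comparisons between sexes, since numbers are nested within sex, and the 2-group fit was not run for the difference of effects.

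Leaving out each library gave 10 to 18 rises and 3 to 5 falls of the Wnt genes in males, 5 to 6 and 4 to 7 in females, and 2 to 7 higher and 0 to 3 lower differences between the sexes. The last were most reduced without male WT 4 (2 and 0). Between the sexes it gave 0 to 0 higher and 0 to 1 lower in WT, and 4 to 9 higher and 3 to 4 lower in S64F/+ islets. The pathway genes gave 22 to 33 rises and 6 to 11 falls in males, 10 to 14 and 7 to 21 in females (21 falls without female S64F/+ 1), and 2 to 15 and 0 to 5 for the difference. Over single Wnt genes and called pathway genes, 4020 of these results kept their side of the threshold, 245 lost it and 31 gained it. Where a count moved, the cause was not tested. Genes below 1 CPM rest on few counts in the smallest library of 19.3 M counts.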
